A study of Rattus norvegicus with 6 samples.

Results

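The metalloprotease families Mmp, Adam and Adamts, the Adamts-like (Adamtsl) and Adamdec genes related to them, and the Timp inhibitors were followed in rat bone cells caught by either of 2 protein coatings. Members were all rows of the deposited table annotated with exactly 1 symbol made of Mmp or Timp plus digits, or starting with Adam. This gave 58 genes on 59 rows, out of 14506 genes with a single symbol, and where a gene had more than 1 row the brightest over all 6 arrays was used. Of the 58, 21 were Mmp genes, 18 Adam, 11 Adamts, 3 Adamtsl, 1 Adamdec and 4 Timp. The cells were extracted from long bones of Sprague Dawley rats 2 to 5 days old and adhered to multi-well plates coated with mouse prothrombin (PT), the precursor of the clotting protease thrombin, or bovine milk osteopontin (OPN), an acidic phosphoprotein of bone matrix. Each group had 3 Affymetrix Rat Gene 1.0 ST arrays, PT replicates 1, 2 and 4 and OPN replicates 2, 3 and 4, with no untreated or unselected cells beside them. Whether the 3 arrays of a coating hold separate animals or cell preparations is not in the labels. The p-values therefore describe only the spread among these 6 arrays, which may be technical. The labels call the cells PT or OPN adherent bone cells, and the study's title speaks of macrophage and osteoclast phenotypes. Marker lists of both types, and of other cell types the preparation could hold, are given last, with the number of markers that stood above dim signal.

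Matrix metalloproteinases (MMPs) are zinc enzymes that are made as inactive precursors and cut collagens, gelatin and other matrix proteins. ADAMs are membrane-bound relatives, several of which release growth factors and cytokines from cell surfaces, while ADAMTS enzymes are secreted and act on proteoglycans and procollagens. TIMPs bind the active site of these enzymes and block it. In bone, osteoclasts resorb mineralised matrix while cells of the osteoblast lineage make MMPs that trim collagen, so matrix proteases are known from both.

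Values are PLIER signals, linear intensities that summarise the probes of a row, and differences are OPN minus PT on the scale log2(signal + 16), which understates the change of dim rows. Fold values are this difference turned back from log2, so they are not ratios of the printed means. A gene is said to rise or fall where its p from limma, with Benjamini-Hochberg adjustment across the 29215 rows of the table, was below 0.05. Array medians lay between 208 and 231 units. Over all rows, log2 signals correlated at 0.988 to 0.992 for pairs of arrays from 1 coating and at 0.974 to 0.979 for pairs from both. The table has no detection calls, so 53 olfactory receptor genes were taken as a measure of dim signal, and 95% of them had means below 411 units. On PT only Mmp8, Mmp9 and Adam17 averaged above that level, and on OPN 12 of the 58 members did. Of the 14 members called below, 1 stood above it on PT and 9 on OPN, so most fold differences are taken from PT signals in the dim range, which can hold background.

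Of the 58 members, 14 rose on OPN and 0 fell, where 5.05% of all rows rose and 0.77% fell (5.82% in either direction). Over genes with a single symbol these shares were 7.62% and 1.12%. An unadjusted p below 0.05 for a lower value on OPN was found in 0 members and in 4.82% of all rows. The 14 were the collagenase gene Mmp13, the gelatinase genes Mmp9 and Mmp2, the membrane-anchored Mmp14, Mmp16 and Mmp23, the secreted proteases Adamts1, Adamts2, Adamts4, Adamts5 and Adamts9, and the inhibitors Timp1, Timp2 and Timp3. Their log2 differences ran from 0.49 to 3.81, and 9 of them were at least 2-fold higher, against 0.986% of all rows. The other 44 lay between -0.13 and 0.43. The median over all 58 was 0.08, compared with 0.03 over all rows. In 20 members every OPN array lay above every PT array, as it did in 16.3% of all rows (23.7% did not overlap in either direction). Of the 1700 rows called in all, 1475 were higher on OPN. That split moved to 1193 of 1744 with equal array medians and 1360 of 2105 with quantile normalisation, while the members called stayed at 14 higher and 0 lower. In bulk RNA of attached cells, fewer cells of a type and less RNA per cell cannot be told apart.

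**Figure D1:**
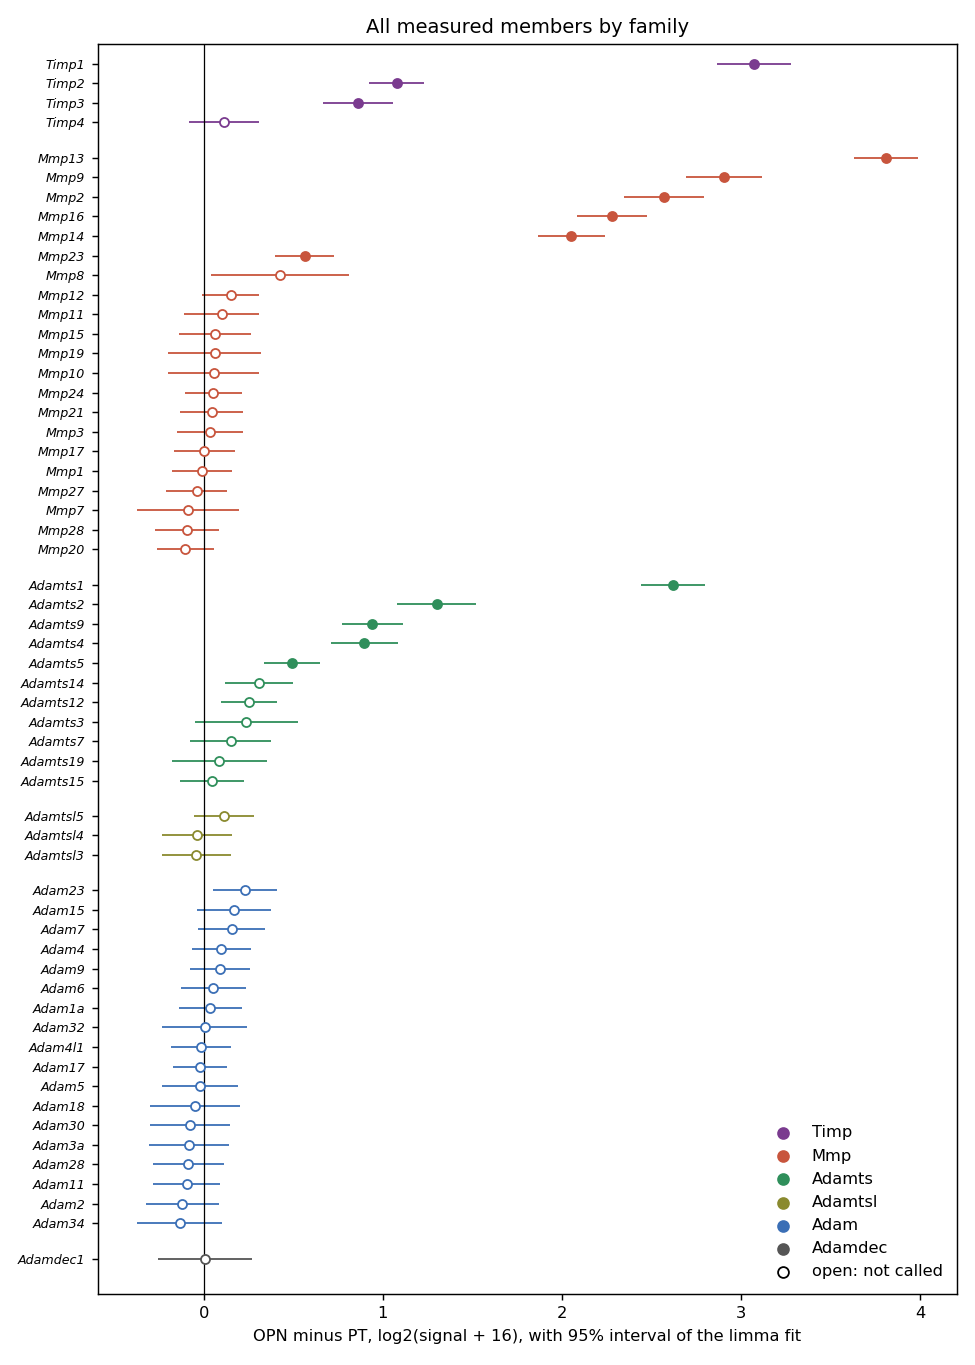
Log2 difference (OPN minus PT, log2 of signal plus 16, x axis) with the 95% interval of the limma fit for the 58 members, grouped by family; filled points are called and open points are not. The 14 called members lie between 0.49 and 3.81, all in the Mmp, Adamts and Timp families, and the 18 Adam genes lie between -0.13 and 0.23.

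Among the inhibitors, 3 of 4 measured Timp genes rose. Timp1, which encodes a soluble inhibitor of most MMPs, had 155, 196 and 166 units on PT (replicates 1, 2 and 4) and 1505, 1609.7 and 1570.3 on OPN (replicates 2, 3 and 4). It averaged 1562 ± 53.1 on OPN and 172 ± 20.8 on PT (SD, n = 3), 8.40-fold higher (log2 difference 3.07, SE 0.09, adjusted p = 3.48e-07). The lowest OPN array stood far above the highest PT array. Timp2, whose product both inhibits MMPs and joins MMP14 in activating MMP2, had 339, 360.3 and 362 units on PT and 764, 784 and 745 on OPN and was 2.11-fold higher (log2 difference 1.08, SE 0.07, adjusted p = 2.42e-05). Its arrays were tightly grouped within each coating and did not overlap between them. Timp3, which encodes the matrix-bound inhibitor that also acts on ADAM and ADAMTS proteases, had 204, 188 and 221 units on PT and 409, 388 and 355 on OPN, a 1.81-fold difference (log2 difference 0.86, SE 0.09, adjusted p = 0.000444). Timp4, the inhibitor known chiefly from heart and brain, had 372, 314 and 316 units on PT and 379.7, 356 and 349.8 on OPN and did not pass (log2 difference 0.11, SE 0.08, adjusted p = 0.576), with a 95% interval of -0.08 to 0.31. Its groups overlapped. In the GRCr8 gene table Timp1, Timp3 and Timp4 overlap the synapsin genes Syn1, Syn3 and Syn2, and Timp2 overlaps Cep295nl. The overlapping genes did not pass, with log2 differences of -0.02 for Syn1, 0.18 for Syn3, 0.06 for Syn2 and 0.01 for Cep295nl.

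The collagenases, which cut fibrillar collagen across its triple helix, gave the largest single difference among the members. Mmp13, the main collagenase of rodent bone, had 362, 368 and 339 units on PT (replicates 1, 2 and 4) and 4948, 5659 and 5010.0 on OPN (replicates 2, 3 and 4). It averaged 5206 ± 394 on OPN and 356 ± 15.3 on PT (SD, n = 3), 14.02-fold higher (log2 difference 3.81, SE 0.08, adjusted p = 1.27e-07), and all 3 PT arrays were low and all 3 OPN arrays high. Mmp1, which in other mammals encodes the interstitial collagenase, was dim on every array, at 107, 103 and 106 units on PT and 114, 104 and 97.9 on OPN. It did not pass (log2 difference -0.01, SE 0.07, adjusted p = 0.980), and its 95% interval ran from -0.17 to 0.16.

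**Figure D2:**
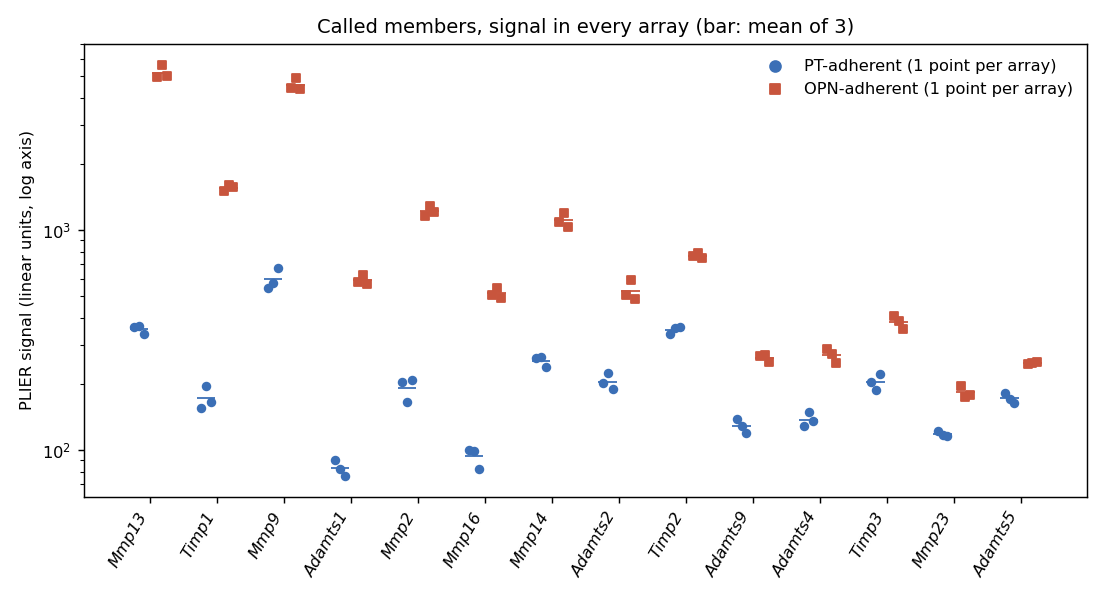
PLIER signal (linear units on a log axis) of the 14 members that rose, ordered by log2 difference, with 1 point per array (circles PT, squares OPN) and a bar at the mean of 3 arrays. In each gene all OPN arrays lie above all PT arrays, with the widest gap in Mmp13, from 356 to 5206 units on average.

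Mmp8, the collagenase stored in neutrophil granules, varied within PT. It had 750.2, 775 and 1205 units on PT (replicates 1, 2 and 4) and 1099, 1249.6 and 1257 on OPN (replicates 2, 3 and 4). PT replicates 1 and 2 were low, while PT replicate 4 lay within the range of the OPN arrays, so the groups overlapped. The OPN mean was 1202 ± 89.2 and the PT mean 910.1 ± 256 (SD, 3 arrays each). The difference missed the threshold (log2 difference 0.43, SE 0.17, adjusted p = 0.226). Without PT replicate 4 it was called higher on OPN (log2 difference 0.64, adjusted p = 0.00754), which brought the members called to 15. The summed signal of 10 neutrophil marker genes was likewise highest among PT arrays in replicate 4, as it was for 9 of the 10 genes singly. The sums were 10029.7, 11842 and 16310.5 units in PT replicates 1, 2 and 4, and 14975, 16842 and 16299 units in OPN replicates 2, 3 and 4. Of these markers 0 passed limma's test on all 6 arrays, and 4 had an unadjusted p below 0.05 (17.7% of all rows did). Without PT replicate 4, 5 of them were called higher on OPN, as were 1357 of the 29215 rows. The 5 were the granule genes Camp, Lcn2 and Ngp and the calgranulin genes S100a8 and S100a9. The part of neutrophil RNA in the Mmp8 values was not tested.

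**Figure D3:**
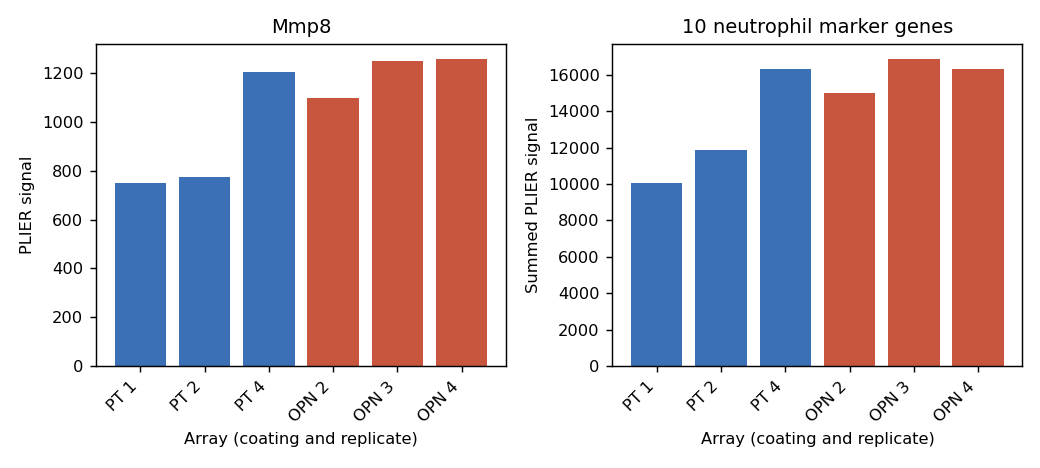
PLIER signal of Mmp8 (left, linear units) and summed signal of the 10 neutrophil marker genes (right) in each of the 6 arrays, PT in blue and OPN in red. PT replicate 4, at 1205 units of Mmp8 and 16311 of the markers, stands with the OPN arrays in both panels.

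Mmp13 stands at 1 end of a row of Mmp genes. In GRCr8, 9 members lie side by side on rat chromosome 8 in the order Mmp13, Mmp12, Mmp3, Mmp1, Mmp10, Mmp8, Mmp27, Mmp20 and Mmp7, with 1 further protein-coding gene, Mmp1b, among them. Mmp13 rose and the other 8 members of the row did not pass, with log2 differences between -0.10 and 0.43. Its next neighbour Mmp12, the macrophage elastase gene, had 169, 158 and 171 units on PT and 179.5, 195 and 184 on OPN. The OPN arrays of Mmp12 lay above the PT arrays by a small step, which missed the threshold (log2 difference 0.15, SE 0.07, adjusted p = 0.307).

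Promoters of several of these genes are known to bind AP-1, the dimer of Fos and Jun proteins. The 250 bases before each start were searched on both strands for the AP-1 letters TGAGTCA or TGACTCA, in the RefSeq promoters of GRCr8, where 37 of the 58 members had an entry. The called members Mmp2, Mmp9, Mmp14, Mmp16 and Adamts5 had none, so their promoters were not searched. The letters occurred in 6 of the 37, all in this row, and in 4.05% of 33469 RefSeq promoters of the same length. They began between 61 and 87 bases before the start. For RUNX factors, of which Runx2 drives osteoblast genes and itself rose here (log2 difference 1.13, adjusted p = 0.000196), the letters AACCACA or TGTGGTT were searched as well. They occurred in 4.59% of all promoters and in 2 member promoters, those of Mmp13 and Adam4l1. The Mmp13 promoter (plus strand, chr8:12782579-12782828, GRCr8) is shown because Mmp13 is the member of the row that rose. Its capitals mark the RUNX letters, 150 bases before the start, and then the AP-1 letters, 66 bases before it.
Mmp13: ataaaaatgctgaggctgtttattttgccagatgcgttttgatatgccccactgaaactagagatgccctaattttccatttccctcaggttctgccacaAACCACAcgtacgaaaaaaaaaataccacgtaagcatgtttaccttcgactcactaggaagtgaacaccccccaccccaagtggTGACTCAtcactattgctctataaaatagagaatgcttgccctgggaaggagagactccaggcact

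The last 120 bases before the start of the other 5 genes with the AP-1 letters are shown for comparison, with those letters in capitals, all on the plus strand of GRCr8 (chr8:12866532-12866651, chr8:12925161-12925280, chr8:12943333-12943452, chr8:12974587-12974706 and chr8:13132923-13133042). Mmp8 (chr8:13008770-13008889) is shown as a neighbour without them.
Mmp12: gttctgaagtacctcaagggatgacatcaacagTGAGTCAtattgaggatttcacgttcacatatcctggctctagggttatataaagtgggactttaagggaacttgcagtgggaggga
Mmp3: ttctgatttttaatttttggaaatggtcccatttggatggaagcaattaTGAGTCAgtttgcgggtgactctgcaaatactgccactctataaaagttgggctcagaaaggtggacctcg
Mmp1: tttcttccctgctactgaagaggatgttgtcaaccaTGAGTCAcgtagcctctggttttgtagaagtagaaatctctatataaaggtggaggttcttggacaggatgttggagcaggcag
Mmp10: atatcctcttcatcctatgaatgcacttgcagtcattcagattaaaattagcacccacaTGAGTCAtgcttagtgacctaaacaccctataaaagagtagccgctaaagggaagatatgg
Mmp7: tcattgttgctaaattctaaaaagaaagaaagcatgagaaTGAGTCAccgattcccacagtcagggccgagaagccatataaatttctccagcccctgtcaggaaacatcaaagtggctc
Mmp8: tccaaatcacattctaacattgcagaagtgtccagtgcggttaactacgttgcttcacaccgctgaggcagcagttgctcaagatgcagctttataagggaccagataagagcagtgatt
The 6 promoters with the AP-1 letters belong to Mmp13, at a log2 difference of 3.81, and to 5 genes between -0.09 and 0.15, none of which passed. Of the other called members, Mmp23, Adamts1, Adamts2, Adamts4, Adamts9, Timp1, Timp2 and Timp3 had an entry, and neither motif occurred in their 250 bases. A match describes the letters in this window only, and sites that differ from these letters were not searched.

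**Figure D4:**
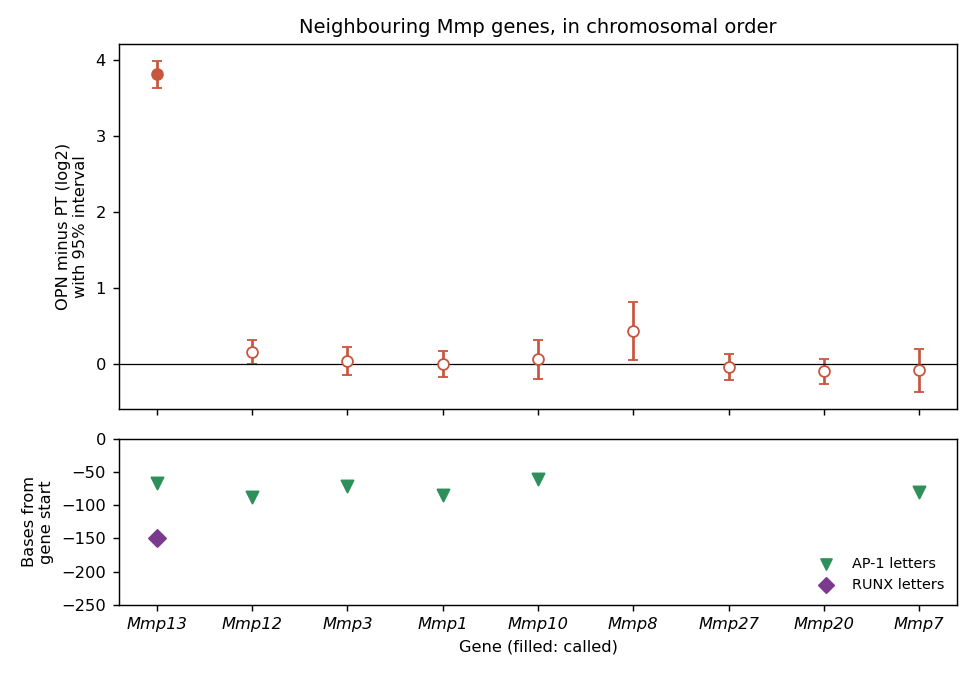
The 9 neighbouring Mmp genes of rat chromosome 8 in chromosomal order, with the log2 difference (OPN minus PT) and its 95% interval above and, below, the distance in bases from the gene start of the AP-1 letters (triangles) and RUNX letters (diamond) within 250 bases. AP-1 letters stand in 6 of the 9 promoters, and 1 of these genes, Mmp13, was called (filled point).

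Both gelatinase genes rose. Mmp9, whose enzyme is abundant in osteoclasts and neutrophils, had 548, 577 and 672 units on PT and 4431, 4893 and 4401 on OPN, 7.48-fold higher on OPN (log2 difference 2.90, SE 0.09, adjusted p = 5.07e-07). It was the called member with the brightest PT arrays, and PT replicate 4 was the highest of them. Mmp2, the gelatinase of fibroblasts and osteoblasts, had 204, 165 and 209.6 units on PT and 1155, 1293 and 1211 on OPN, a 5.94-fold difference (log2 difference 2.57, SE 0.10, adjusted p = 1.62e-06). On PT it stayed at the level of the dim olfactory receptor genes and on OPN it stood above 1000 units on each array.

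Of 6 membrane-anchored Mmp genes, 3 rose. Mmp14, which encodes the membrane collagenase that activates the MMP2 precursor, had 262, 264 and 239 units on PT and 1092, 1203 and 1035 on OPN and was 4.15-fold higher (log2 difference 2.05, SE 0.08, adjusted p = 1.94e-06). Mmp16, a close relative of Mmp14, had 100.03, 98.9 and 82.7 units on PT and 508, 546 and 495 on OPN, a 4.85-fold difference (log2 difference 2.28, SE 0.09, adjusted p = 1.50e-06). In both genes the arrays of a coating kept close together and the coatings lay far apart. Mmp23, whose product is anchored through its N-terminal part, had 122, 118 and 116 units on PT and 197, 175 and 178 on OPN, a 1.48-fold difference (log2 difference 0.56, SE 0.07, adjusted p = 0.00191). Its signal stayed within the range of the olfactory receptor genes on both coatings. The other membrane-type genes did not pass, Mmp15 at 301 on PT and 316 on OPN (log2 difference 0.06), Mmp24 at 256 on PT and 266 on OPN (0.05) and Mmp17 at 183 on PT and 184 on OPN (0.004). Their 95% intervals ended at 0.27 or below, and the differences of Mmp15, Mmp17 and Mmp24 turned below 0 with equal array medians or quantile normalisation.

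The stromelysin genes Mmp3, Mmp10 and Mmp11, which cut proteoglycans and activate other MMPs or, for Mmp11, act on few matrix proteins, did not pass. In units of signal, Mmp3 averaged 148 on PT and 152 on OPN, Mmp10 83.2 on PT and 87.6 on OPN and Mmp11 196 on PT and 212 on OPN, with log2 differences of 0.03, 0.06 and 0.10. Mmp3 lay below 0 under either scaling of the arrays, and Mmp10 with equal medians. Of the remaining Mmp genes, Mmp12 included, limma called 0 of 7, and 0 had an unadjusted p below 0.05. Mmp7 (matrilysin), Mmp20 (the enamel protease), Mmp27 and Mmp28 (epilysin) had log2 differences of -0.09, -0.10, -0.04 and -0.09. Those of Mmp19 and Mmp21 were 0.06 and 0.05, and both lay below 0 with either scaling of the arrays. All 10 of these genes had means between 83.2 and 252 units on PT, within the range of the olfactory receptor genes.

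All 11 Adamts genes had log2 differences above 0 (10 under either scaling of the arrays), with 5 called and the other 6 between 0.05 and 0.31. Adamts1, whose enzyme cuts the proteoglycans versican and aggrecan, had 90.3, 82.4 and 76.2 units on PT (replicates 1, 2 and 4) and 579.8, 623 and 572 on OPN (replicates 2, 3 and 4). It averaged 592 ± 27.5 on OPN and 83.0 ± 7.08 on PT (SD, n = 3), 6.14-fold higher (log2 difference 2.62, SE 0.08, adjusted p = 3.74e-07), and its PT arrays were below 100 units. Adamts5, its direct neighbour on rat chromosome 11 in GRCr8 and another aggrecan-cutting enzyme, had 183, 172 and 164 units on PT and 247, 250.04 and 253 on OPN. It rose 1.41-fold (log2 difference 0.49, SE 0.07, adjusted p = 0.00308). The 95% intervals of these neighbours, 2.44 to 2.80 for Adamts1 and 0.34 to 0.65 for Adamts5, did not overlap.

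The other proteoglycan-cutting members were Adamts4, Adamts9 and Adamts15. Adamts4 had 129.6, 149 and 135 units on PT and 289, 274 and 249.8 on OPN, 1.86-fold higher on OPN (log2 difference 0.90, SE 0.08, adjusted p = 0.000276). Adamts9 had 138, 129 and 120.4 units on PT and 268, 269.8 and 251 on OPN, a 1.92-fold difference (log2 difference 0.94, SE 0.07, adjusted p = 0.000119). Both had OPN arrays clear of the PT arrays, though all 6 arrays lay below the 95% level of the olfactory receptor genes. Adamts15 averaged 223 on PT and 230.3 on OPN and did not pass (log2 difference 0.05, SE 0.08, adjusted p = 0.828), with a difference of -0.02 under either scaling.

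Of the procollagen N-propeptidases, which remove the N-terminal propeptide of fibrillar collagens, Adamts2 rose. It had 202, 224 and 189.6 units on PT and 509.8, 593 and 486 on OPN, a 2.46-fold difference (log2 difference 1.30, SE 0.10, adjusted p = 7.51e-05), with OPN replicate 3 the highest. Adamts14 had 159, 139 and 132 units on PT and 189, 182 and 172 on OPN. Its coatings did not overlap, yet it missed the threshold (log2 difference 0.31, SE 0.08, adjusted p = 0.0783), and it was called without PT replicate 1 (adjusted p = 0.0391) and with rows under a mean of 100 units left out (adjusted p = 0.0418). Adamts3 was the member with 2 rows, whose log2 differences were 0.24 and 0.01, and neither passed. Adamts14 and Adamts3 were named after their values were seen. Adamts12 had 166, 173 and 163 units on PT and 203, 212 and 194 on OPN, also without overlap. It missed the threshold (log2 difference 0.26, SE 0.07, adjusted p = 0.0749) and was called with the dim rows left out (adjusted p = 0.0472). Adamts7 (0.15), which like Adamts12 cuts the cartilage protein COMP, and Adamts19 (0.09) had overlapping groups. The 3 Adamtsl genes, which encode secreted relatives without a protease domain, gave 0.11 for Adamtsl5, -0.04 for Adamtsl4 and -0.04 for Adamtsl3, and limma called 0 of them, with 0 at an unadjusted p below 0.05.

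In the Adam family 0 of 18 genes were called in limma's test, and 1, Adam23, had an unadjusted p below 0.05, compared with 17.7% of all rows. The median log2 difference of the 18 was -0.02. Adam8, Adam10, Adam12, Adam19 and Adam33 are not among the 18, as none had a row annotated with exactly 1 symbol. Adam17, the protease that releases tumour necrosis factor from the cell surface, had 599, 619.5 and 622 units on PT and 596, 630.1 and 592 on OPN. The groups overlapped and the 95% interval of its difference ran from -0.17 to 0.13 (log2 difference -0.02, SE 0.07, adjusted p = 0.929). Adam9, another widely expressed surface protease, had 409.9, 427 and 373 units on PT and 441, 429 and 420.5 on OPN, also with overlap (log2 difference 0.09, SE 0.07, adjusted p = 0.617). These were the brightest Adam genes, with signals near or above the 95% level of the olfactory receptor genes. Adam15 averaged 225 on PT and 255 on OPN (log2 difference 0.17, SE 0.09, adjusted p = 0.395). Adam23, a brain protein without protease activity, had a log2 difference of 0.23 (adjusted p = 0.157), with all OPN arrays above all PT arrays, and its relative Adam11 had -0.09. The 12 Adam genes known from sperm, testis or epididymis ranged from -0.13 for Adam34 and -0.12 for Adam2 to 0.16 for Adam7, with mean signals between 76.6 and 237 units. Adam28 (-0.09) and Adamdec1 (0.01), known from lymphocytes and myeloid cells, did not pass either, and Adamdec1 lay below 0 under both scalings.

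Proteases and inhibitors were then set against each other. Of the 51 genes in the Mmp, Adam, Adamts and Adamdec families, 11 rose, with a median log2 difference of 0.06 over all 51. Of the 4 Timp genes 3 rose, with a median of 0.97. The 51 hold 12 Adam genes known from sperm, testis or epididymis, with a median of -0.02. Among called genes the differences ran from 0.49 to 3.81 for proteases and from 0.86 to 3.07 for Timp genes. The medians therefore do not show that called inhibitors rose further than called proteases. For 4 pairs of an enzyme and an inhibitor known to bind it, chosen after the values were seen, the log2 ratio within each array was compared between coatings. The level of such a ratio depends on the probes. On PT the means of Mmp13, Mmp2, Mmp14, Timp1 and Timp2 all lay below the 95% level of the olfactory receptor genes, so the PT ratios can hold background, and the sizes below are differences in signal ratios, not in ratios of transcripts. Relative to Timp1, Mmp13 was higher on OPN by 0.74 and Mmp9 lower by a difference of -0.17. Relative to Timp2, Mmp2 was higher by 1.49 and Mmp14 by 0.98. The arrays of the coatings did not overlap in the ratios of Mmp13, Mmp2 and Mmp14, and they did overlap in that of Mmp9 over Timp1. By exact permutation (two-sided), p was 0.1 for Mmp13 over Timp1 and both Timp2 pairs, the smallest p that 3 against 3 arrays allow, and 0.3 for Mmp9 over Timp1. Adjusted over the 4 pairs these are 0.133 and 0.3.

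The regulators listed are proteins outside these families, most of which activate, anchor, carry or inhibit them. The list also holds genes for procollagen C-propeptide removal, among them Pcolce and Bmp1. Of 24 measured, 9 rose and 1 fell, where 7.62% of genes with a single symbol rose and 1.12% fell. The median log2 difference of the 24 was 0.12. The smallest p-values belonged to Tfpi2, a matrix-bound serine protease inhibitor, at 102, 93.2 and 92.8 units on PT and 1224, 1218 and 1206 on OPN (log2 difference 3.46, SE 0.07, adjusted p = 1.27e-07), Pcolce, which enhances procollagen C-propeptide removal (log2 difference 3.03, SE 0.12, adjusted p = 2.30e-06), and Bmp1, the protease that removes it (log2 difference 2.13, SE 0.09, adjusted p = 3.58e-06). The broad protease inhibitor gene A2m rose as well (log2 difference 0.76, SE 0.09, adjusted p = 0.00105). Tspan33, a tetraspanin that carries ADAM10 to the cell surface, fell (log2 difference -0.32, SE 0.07, adjusted p = 0.0305). Leaving out any single array ended that call (adjusted p between 0.0588 and 0.148). Without OPN replicate 3 the regulators that rose numbered 4. Furin, which activates membrane-type MMPs and ADAMs, did not pass (log2 difference 0.08, SE 0.07, adjusted p = 0.670).

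Of 35 genes for known substrates of these proteases, 12 rose and 2 fell, with a median of 0.14. Among genes with a single symbol 7.62% rose and 1.12% fell. The proteoglycan genes Bgn (3.18) and Dcn (3.04) and the collagen genes Col1a2 (2.47) and Col1a1 (1.87) led in significance, each with adjusted p of at most 1.96e-06. Vcan, which encodes versican, the substrate of Adamts1, had 137, 119.6 and 132 units on PT and 242, 255 and 276 on OPN and rose (log2 difference 0.91, SE 0.08, adjusted p = 0.000216), while Acan, the aggrecan gene, had 465, 420.3 and 422 units on PT and 479, 471 and 366 on OPN without a call (log2 difference 0.00, SE 0.11, adjusted p = 0.998). The 2 that fell were Mertk, a receptor for apoptotic cells that is shed by Adam17 (log2 difference -0.44, SE 0.07, adjusted p = 0.00605), and the adhesion molecule gene Vcam1 (log2 difference -0.53, SE 0.07, adjusted p = 0.00165). Vcan and Acan were named after their values were seen. The AP-1 genes, whose products are known to bind the AP-1 letters, included 4 that rose among 6 measured, Fos (1.74), Jun (1.01), Junb (0.80) and Fosl2 (0.57). Fosl1 (0.13) and Jund (0.12) did not pass. Binding of these proteins to the promoters printed above was not tested.

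Markers of several cell types differed between the same arrays. Over genes with a single symbol, 7.62% rose and 1.12% fell. All 11 measured osteoblast markers rose, with summed signals of 11134 to 12125 units on PT and 57194 to 63924 on OPN, and all 9 measured stromal fibroblast markers did, with sums of 1726 to 1808 units on PT and 6541 to 7107 on OPN. Of 8 measured osteoclast markers 6 rose, with sums of 10614 to 12719.9 units on PT and 24343 to 27377 on OPN, and 3 of the 8 lay below 411 units on PT. The 2 without a call were Calcr, the calcitonin receptor gene, at 157 on PT and 182 on OPN, and Car2, for carbonic anhydrase 2, at 8897 on PT and 7673 on OPN (log2 difference -0.21, adjusted p = 0.334). Car2 made up most of the PT sum. Of 9 endothelial markers 8 rose (1722 to 1869 units on PT and 2818 to 2964 on OPN), as did all 6 measured platelet markers (2224 to 2368 units on PT and 3829 to 4171 on OPN). The 12 macrophage markers held 8 that fell and 0 that rose (14283 to 15010.5 units on PT and 10238 to 10978 on OPN), and 2 of the 12 lay below 411 units on PT. The other 4 were not called, with log2 differences of 0.12 for Csf1r, 0.18 for Cd68, 0.14 for Vsig4 and -0.25 for Siglec1. Of 9 chondrocyte markers 1, Col2a1, rose (2519.7 to 2851 units on PT and 2873 to 3082 on OPN), and none was called without PT replicate 2, PT replicate 4, OPN replicate 2 or OPN replicate 3. Of 6 erythroid markers limma called 0, and 4 had an unadjusted p below 0.05, all for lower values on OPN (49121 to 55654 units on PT and 45634 to 49646 on OPN). Over all rows 4.82% had an unadjusted p below 0.05 for a lower value. With offset 64 or with equal array medians, 1 erythroid marker was called lower. No marker was at 0 on any array, but many were dim. On both coatings, means lay below 411 units for 9 of 9 endothelial, 7 of 9 chondrocyte and 3 of 10 neutrophil markers. They did so for 2 of 6 platelet, 2 of 9 stromal, 1 of 11 osteoblast and 0 of 6 erythroid markers. On PT, whatever the OPN mean, 9 of 9 stromal, 7 of 11 osteoblast and 5 of 6 platelet markers lay below that level. The collagen genes Col1a1, Col1a2 and Col3a1 and the proteoglycan gene Dcn count both among these markers and among the substrates. The share that each of these cell types had in the differences of the Mmp, Adamts and Timp genes was not tested.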

How the data were processed

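Per the submitters' processing notes, the deposited intensities were made with Affymetrix Expression Console and PLIER; their versions, the background correction, any scaling between arrays and a build are all not given in the sources used here. Per the labels' protocols, 300 ng of RNA went into whole-transcript labelling, and ribosomal RNA was not reduced first. The values are linear, 1 per row and array, and none lies below 0. The number of arrays limits the precision.

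Gene names come from GEO's platform annotation. It gives 1 symbol for 15310 of the 29215 rows, several for 323 and none for 13582. Rows with several symbols were not used for names. All 58 members matched the GRCr8 gene table by Entrez identifier and kept their symbols. Promoter sequences are from RefSeq (GRCr8), and protein sequences were not used here, so proteases were grouped by known role and not, as planned, by a zinc-binding motif.

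Coatings were compared on log2(intensity + 16) for all rows in limma 3.58.1 (lmFit, then eBayes; R 4.3.3), with no filter and no block, and tested on simulated data. Alternatives were other offsets (1 and 64), equal array medians, quantile normalisation, leaving out rows with a mean under 100, an intensity trend in eBayes, the replicate number as a block, the other row of a gene, and leaving out each array. Members, gene lists and tests were chosen with earlier results of these data known. The text names all Mmp and Timp members, all called members, and per other family the 3 brightest uncalled, any uncalled of at least 0.5 in size and the 2 lowest. In the lists of regulators, substrates and AP-1 genes it names up to 4 called genes of smallest p and called genes that oppose the rest. Genes beyond this rule (among them Adam7, Adam15, Adam23, Adam28, Furin, Fosl1, Jund, Runx2, Calcr, Car2, Csf1r, Cd68, Vsig4, Siglec1, Col2a1 and the neutrophil markers) were named after their values were seen.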

Additional observations from a re-analysis of the deposited data

How the results depend on the processing

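The 14 called members kept their direction under every alternative, and 13 kept their call under all of them. The exception was Adamts5, at adjusted p = 0.0695 (log2 difference 0.53) with the replicate number as a block. Numbers 2 and 4 are used for both coatings. Numbers 1 and 3 occur once each, so under the block PT replicate 1 and OPN replicate 3 did not inform the difference. No label ties a number to a shared preparation, and the deviations of same-numbered arrays correlated at -0.082 and 0.068, so the numbers were not taken as pairing. The replicate block called 666 rows in all and 13 members. Rows called numbered 1023 to 1486 when 1 array was left out (1080 without OPN replicate 2 and 1023 without OPN replicate 3), against 1700 with all arrays, while the members called higher stayed at 14 or 15, and 0 were called lower. With dim rows left out 55 members were tested and 16 called. The median of all rows moved from 0.03 to -0.04 with equal array medians and to -0.03 with quantile normalisation. Uncalled members near 0 changed sign, and the cause was not tested. With equal array medians these were Adamdec1 and Mmp17 (-0.06 each), Adamts15 and Mmp21 (-0.02 each), Mmp3 (-0.03), Mmp24 (-0.01), Mmp10 (-0.002) and Mmp15 and Mmp19 (-0.003 each). With quantile normalisation they were Adamdec1 and Mmp17 (-0.05 each), Adamts15, Mmp3, Mmp15, Mmp21 and Mmp24 (-0.02 each) and Mmp19 (-0.004). With the replicate block they were Adamdec1 (-0.14), Adamtsl3 (0.02), Adamtsl4 (0.002), Mmp1 (0.01), Mmp27 (0.04) and Mmp7 (0.04). Leaving out 1 array gave ranges across 0 for Adamdec1 (-0.09 to 0.11), Adamts15 (-0.02 to 0.08), Adamtsl3 (-0.10 to 0.03), Adamtsl4 (-0.12 to 0.01), Mmp1 (-0.06 to 0.04), Mmp10 (-0.06 to 0.12), Mmp15 (-0.003 to 0.15), Mmp17 (-0.04 to 0.06), Mmp19 (-0.04 to 0.14), Mmp21 (-0.01 to 0.08), Mmp27 (-0.08 to 0.01) and Mmp3 (-0.01 to 0.10). On PT 55 of the 58 members averaged below the level under which 95% of olfactory receptor genes stayed.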
